A study of Mus musculus with 5 samples.

Results

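MicroRNA was compared between 2 mouse hindlimb muscles, soleus and gastrocnemius, which are 2 of the 5 tissues of the series. The comparison used every array probe named for a mouse microRNA, 598 probes with 1 probe per name, and detection meant a background-subtracted intensity of at least 50 units. Of these, 170 were detected in soleus, 165 in gastrocnemius, 159 in both and 176 in at least 1. The other 422 were under that floor in both muscles. Both RNAs came from C57BL/6 mice aged 2 to 3 months, with no transgene, allele or treatment named, and the other arrays of the series hold brown, inguinal and epididymal fat of the same strain and age. Each tissue was hybridised to 1 array, and the number of animals behind each RNA is not stated in the labels. No test between the muscles was therefore possible, and no p-value is given. Errors are standard errors (SE) from the 4 spots of a probe on each array, and they cover spot-to-spot noise only.

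Soleus is a postural muscle rich in slow, oxidative fibres, and gastrocnemius is a mixed muscle with many fast, glycolytic fibres. MicroRNAs are short RNAs that lower the output of messenger RNAs matching their seed, the bases at positions 2 to 8. A set called myomiRs is concentrated in striated muscle, and some of its members lie in introns of myosin heavy chain genes, so that a fibre type's myosin gene and its microRNA are transcribed together. In mouse, miR-208b lies within Myh7, the slow (beta) myosin heavy chain gene, and miR-499 within the related Myh7b.

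The mature sequences of microRNAs on which the comparison turns are given here 5′ to 3′ from RefSeq (GRCm38.p6), with the seed in capitals. Names are those of the array, in which a star marks the second arm of a precursor. The first are the myosin-intron pair, which rank first and second in the soleus direction.
miR-208b: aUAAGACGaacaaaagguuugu
miR-499: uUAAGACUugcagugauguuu
They share 6 bases from position 2 and differ at the last base of the seed. The next are the other microRNAs at least 2-fold higher in soleus, set beside relatives: miR-24-1* beside miR-24-2*, miR-497 and miR-322 beside miR-503, and miR-503* as the other arm of the same hairpin.
miR-503: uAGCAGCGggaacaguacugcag
miR-503*: gAGUAUUGuuuccacugccugg
miR-497: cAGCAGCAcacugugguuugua
miR-322: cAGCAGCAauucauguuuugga
miR-24-2*: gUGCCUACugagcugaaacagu
miR-24-1*: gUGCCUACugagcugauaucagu
miR-706: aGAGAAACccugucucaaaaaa
miR-503 shares 6 bases from position 2 with miR-497 and miR-322, while miR-24-1* and miR-24-2* share the whole seed. The last are microRNAs lower in soleus, with miR-193b and miR-365 shown because they belong to the seed family or the cluster of miR-193.
miR-193: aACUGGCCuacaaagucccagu
miR-193b: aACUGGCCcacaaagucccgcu
miR-365: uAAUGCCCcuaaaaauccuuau
miR-350: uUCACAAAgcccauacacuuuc
miR-136: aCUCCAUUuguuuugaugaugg
miR-193 and miR-193b share the whole seed and differ at 3 of 22 positions. The array's miR-193 is the microRNA that RefSeq names miR-193a, by a synonym of that gene. Probes of such close relatives may bind each other's targets, which was not tested.

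The muscles differed at few microRNAs. At least 2-fold higher in soleus were 5 of the 176 microRNAs detected in at least 1 muscle (2.84%), namely miR-208b, miR-499, miR-503, miR-24-2* and miR-706. At least 2-fold lower were 4 of 176 (2.27%), namely miR-193, miR-486, miR-350 and miR-136, so that 9 of 176 (5.11%) passed 2-fold in either direction. Without scaling of the arrays the split was 8 higher and 2 lower, and with scaling to the median of the mouse probes detected in both muscles it was 8 and 3. It was 5 and 2 for foreground intensity without background subtraction, and 4 and 2 after normexp background correction with quantile normalization.

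The rest lay close together. Over the 159 microRNAs detected in both muscles, the log2 ratio of soleus over gastrocnemius had a median of -0.03, quartiles of -0.38 and 0.21 and an SD of 0.63, and the SD was 0.46 without miR-208b and miR-193. Within 1.5-fold were 127 of the 159 (79.9%). The median spot SE of a ratio was 0.13, and 95% of them were under 0.285. For 23 microRNAs (14.5%) all 4 soleus spots lay above all 4 gastrocnemius spots, and for 40 (25.2%) all lay below. Among the 10 pairs of arrays in the series, the muscle pair had the narrowest interquartile range of log2 ratios, 0.59 against 0.78 to 1.30 for the other 9. It also had the smallest share of doubly detected microRNAs past 2-fold, 5.03% against 15.04% to 35.1%.

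**Figure D1:**
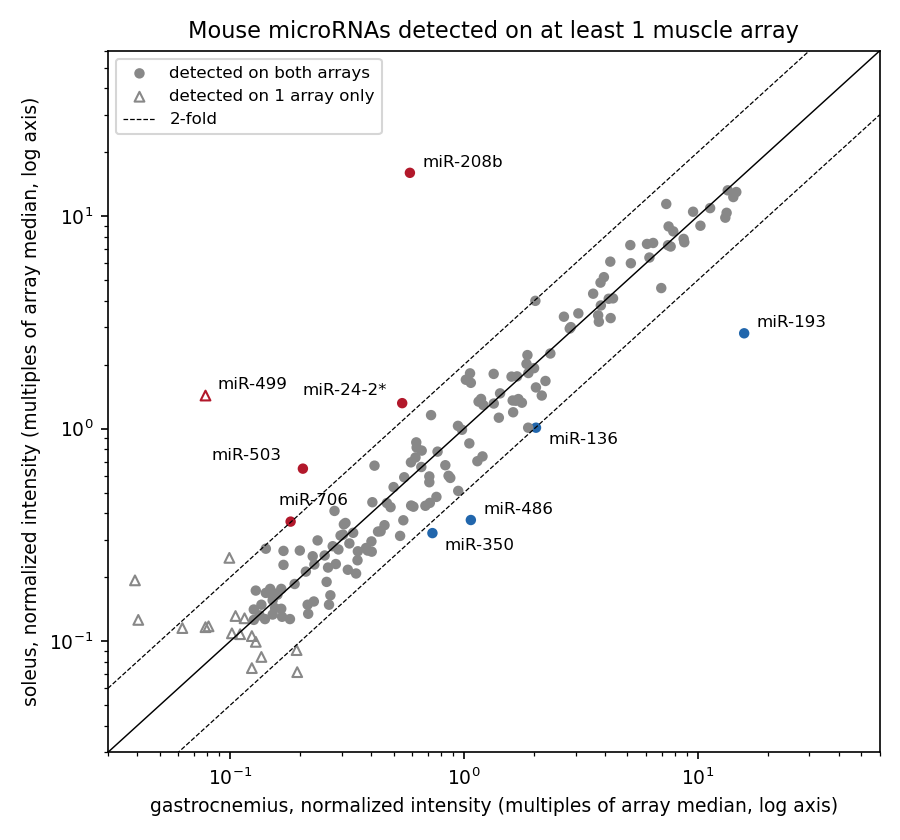
Normalized intensity of 176 mouse microRNAs in gastrocnemius (x axis) and soleus (y axis), both in multiples of the array's median on log axes, with 1 point per microRNA, open triangles for those detected in 1 muscle only and dashed lines at 2-fold. Most points lie between the dashed lines, with miR-208b and miR-499 far above them and miR-193 far below.

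The tissue labels were checked against muscle microRNAs. The 5 skeletal muscle markers, miR-1, miR-133a, miR-133a*, miR-133b and miR-206, were all detected in both muscles, and their normalized intensities summed to 35.3 in gastrocnemius and 37.3 in soleus. On the fat arrays the same sum was 6.41 in brown, 0.486 in inguinal and 0.360 in epididymal fat. Of the markers of other cells, the liver microRNA miR-122 read 5 and 12.5 units in gastrocnemius and soleus, and 7 of 8 epithelial markers were under the floor in both. The summed leukocyte markers were at 4.32 in gastrocnemius and 3.66 in soleus, the endothelial at 9.20 and 9.79, and the red cell at 5.52 and 5.49. The smooth muscle and stromal sum was 18.5 and 15.2, the adipocyte sum 2.12 and 1.99 and the neural sum 0.890 and 1.42, with 6 of 8 neural markers under the floor in both muscles. Most of the neural sum was miR-128, at 0.723 and 1.16, the 1 neural marker detected in both. It is a microRNA of brain and muscle, so that sum does not measure neural cells alone. These sums follow their brightest members, and of the members detected in both muscles 4 of 6 stromal markers (median log2 ratio 0.05) and 3 of 5 adipocyte markers (0.12) were above 0. The part of these cells in the results was not tested. In whole muscle, fewer cells of a type and less RNA per cell cannot be told apart.

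The slow myosin pair stood highest. miR-208b gave spots of 213, 237, 242 and 244 units in gastrocnemius and of 4436, 7328, 7631 and 8459 units in soleus. Its normalized intensity, in multiples of the array's median, was 0.587 in gastrocnemius and 15.99 in soleus. That is 27.2-fold higher, a log2 ratio of 4.77 ± 0.21 (spot SE, n = 4 spots per array), and the lowest soleus spot is far above every gastrocnemius spot. On the fat arrays it read 32 units in brown, 1 in inguinal and 0.5 in epididymal fat, all under the floor. The mature sequence lies at chr14:54975710-54975731 on the minus strand (GRCm38.p6), within the span and on the strand of Myh7.

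miR-499 gave spots of 26, 32, 32 and 40 units in gastrocnemius, where it was under the floor, and of 595, 665, 675 and 742 units in soleus. Its soleus level was 1.43, at least 11.6-fold higher than in gastrocnemius, with the lowest detected level of that array in place of the gastrocnemius value. The bound depends on the floor, and was 2.50 on the log2 scale with a floor of 100 units and 4.19 with the deposited value, against 3.53 in the main setting. The fat arrays read 1 to 6.5 units. It lies at chr2:155622893-155622913 on the plus strand, within the span and on the strand of Myh7b. The third of these relatives, miR-208a, encoded within the cardiac myosin gene Myh6, stayed under the floor in both muscles at 3.5 units in gastrocnemius and 49 units in soleus.

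**Figure D2:**
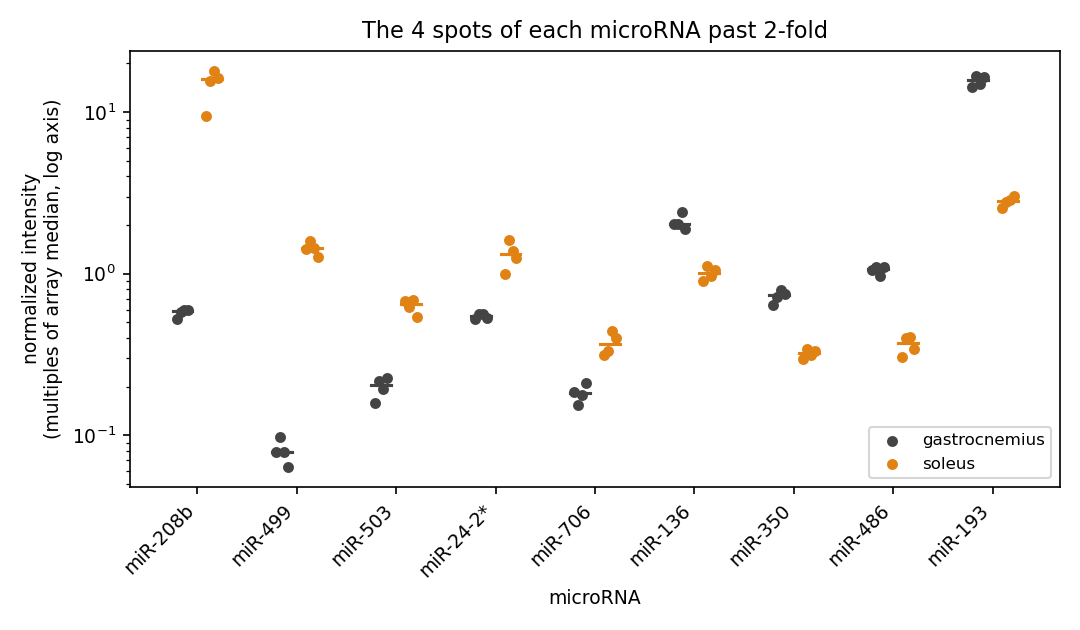
Normalized intensity (log axis, multiples of the array's median) of each of the 4 spots per array for the 9 microRNAs past 2-fold, gastrocnemius in grey and soleus in orange, with a bar at the probe's deposited value. For none of the 9 do the spots of the muscles overlap; the soleus spots of miR-208b run from 9.48 to 18.1 and its gastrocnemius spots from 0.522 to 0.598.

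The remaining myomiRs differed less. miR-206, which is enriched in slow muscle and at the neuromuscular junction in mouse, was at 7.33 in gastrocnemius and 11.4 in soleus, a log2 ratio of 0.64 ± 0.14, and its spots did not overlap. miR-133b, encoded beside it on chromosome 1, was at 6.21 and 6.39, a log2 ratio of 0.04 ± 0.22. miR-1, which promotes muscle differentiation, was at 3.75 and 3.42 (log2 ratio -0.13 ± 0.05), and miR-133a, which favours proliferation of myoblasts, at 14.2 and 12.3 (-0.21 ± 0.03). Normalized spots of miR-1 and miR-133a lay lower in soleus without overlap, by small amounts. Without scaling of the arrays their log2 ratios were 0.06 and -0.008. Their main values also lie within the range of the spike-in controls, -0.22 to 0.25. The soleus value of miR-133a* differed by less than its spot SE (-0.02 ± 0.19). Over the 7 of 9 listed muscle microRNAs detected in both, 2 were at least 1.5-fold higher, against a background of 8.18%, and 1 was at least 1.5-fold lower, against 11.9%. Their median log2 ratio was -0.02, beside -0.03 over all 159.

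miR-486 was the 1 listed muscle microRNA at least 2-fold lower in soleus. It lies within the span of Ank1 and is known to act in muscle growth signalling. Its spots were 397, 427, 446 and 450 units in gastrocnemius and 142, 160, 188 and 189 units in soleus. The normalized level was 1.07 in gastrocnemius and 0.372 in soleus, 2.88-fold lower in soleus (log2 ratio -1.52 ± 0.11). Both muscles were above the fat arrays, where it was at 0.0357 to 0.126. The red cell markers, which share with miR-486 a high level in erythroid cells, had log2 ratios of 0.22 ± 0.09 for miR-144 and -0.08 ± 0.48 for miR-451.

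miR-193 had the lowest ratio. Its spots were 5818, 6114, 6763 and 6788 units in gastrocnemius and 1195, 1297, 1333 and 1411 units in soleus, so every soleus spot was below every gastrocnemius spot. The normalized level was 15.8 in gastrocnemius and 2.81 in soleus, 5.62-fold lower in soleus (log2 ratio -2.49 ± 0.07). Soleus was the lowest of the 5 arrays, and gastrocnemius lay among the fat arrays, with 22.6 in brown, 11.5 in inguinal and 24.3 in epididymal fat. miR-193 was among the 15 brightest microRNAs of the gastrocnemius array and not of the soleus array, while 12 were among the 15 brightest of both. These 12 were let-7a, let-7b, let-7c, let-7f, miR-26b, miR-30a, miR-101a, miR-125b-5p, miR-126-3p, miR-133a, miR-143 and miR-378, with log2 ratios from -0.41 to 0.25. The soleus array's list was completed by miR-206, miR-208b and miR-30b, and that of gastrocnemius by miR-26a and miR-30d.

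The microRNAs related to miR-193 lay on the same side of 0. miR-365, which in mouse is made from a copy beside miR-193a on chromosome 11 and from another beside miR-193b on chromosome 16, was at 1.88 in gastrocnemius and 1.01 in soleus, a log2 ratio of -0.90 ± 0.07. miR-193b, reported in mouse to take part in brown fat cell formation with miR-365, was at 0.215 and 0.149, a log2 ratio of -0.53 ± 0.31 with overlapping spots. The sign was the same for these 3 microRNAs under all 15 alternatives of processing, except that miR-193b was not measured with a floor of 100 units. The adipocyte marker list, which holds miR-193b, summed to 2.12 in gastrocnemius and 1.99 in soleus. Its brightest member was miR-103, at 1.05 and 0.853, while miR-455, miR-182 and miR-96 were under the floor in both muscles. The part of fat cells in the miR-193 values was not tested. miR-193 maps to chr11:79712009-79712030 on the plus strand.

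miR-136 and miR-350 completed the lower side. miR-136 comes from the imprinted Dlk1-Dio3 locus on chromosome 12, at chr12:109595331-109595352 on the plus strand, within the span of Rtl1. Its spots were 776, 826, 832 and 978 units in gastrocnemius and 424, 452, 494 and 525 units in soleus, and its level was 2.03 and 1.01, 2.01-fold lower in soleus (log2 ratio -1.01 ± 0.10). The fat arrays read 0.333 to 0.400, below both muscles. miR-350, within the span and on the strand of Cep170 at chr1:176772342-176772363, gave spots of 260, 292, 306 and 324 units in gastrocnemius and of 138, 146, 156 and 160 units in soleus. Its level was 0.733 and 0.323 (log2 ratio -1.18 ± 0.08), and soleus was the lowest of the 5 arrays. Both calls rest near the limit, since miR-136 was under 2-fold in 6 of the 15 alternatives and miR-350 in 3.

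miR-503, which with miR-322 is known from mouse myoblasts to favour exit from the cell cycle, was the third highest. Its spots were 65, 79, 88 and 92 units in gastrocnemius and 251, 289, 318 and 320 units in soleus. The level was 0.205 in gastrocnemius, the lowest of the 5 arrays, and 0.649 in soleus, the highest, a 3.17-fold difference (log2 ratio 1.66 ± 0.14). The other arm of the same hairpin differed the opposite way. miR-503* was at 0.763 in gastrocnemius and 0.478 in soleus, a log2 ratio of -0.67 ± 0.13 with spots that did not overlap. The ratios of the arms were thus 2.34 ± 0.19 apart on the log2 scale. miR-322 and miR-351, the next hairpins of that cluster on the X chromosome, had log2 ratios of 0.38 ± 0.10 and -0.05 ± 0.09. The miR-503 sequence maps to chrX:53054027-53054049 on the minus strand.

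Both arms were measured in both muscles for 13 precursors with 1 genomic copy. The ratios of the arms differed by a median of 0.30 on the log2 scale, and by more than 3 spot SE for 3 of the 13. Besides miR-503, these were miR-30a, whose arms were at -0.02 ± 0.08 and -0.77 ± 0.14 (the star strand), and miR-30e, at 0.13 ± 0.11 and -0.31 ± 0.08. miR-503 was the 1 precursor whose arms differed 2-fold or more between their ratios. For miR-378, from an intron of Ppargc1b, the arms were at -0.17 ± 0.15 and -0.07 ± 0.08.

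**Figure D3:**
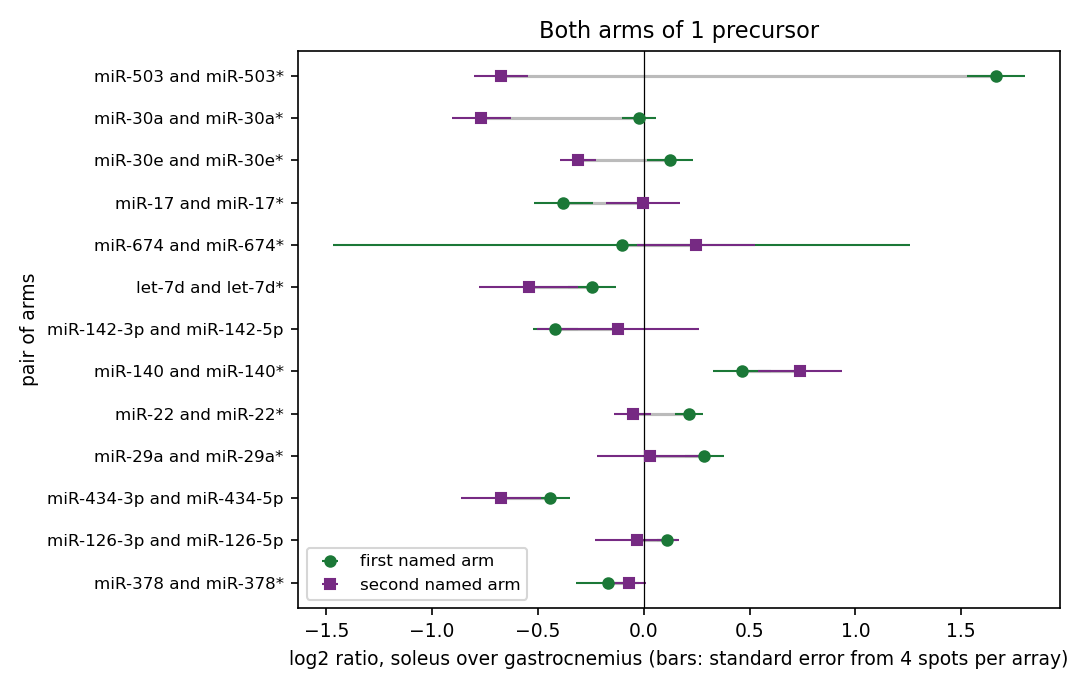
Log2 ratio of soleus over gastrocnemius (x axis) for both arms of 13 precursors, ordered by the distance between the arms, with bars of 1 spot SE from 4 spots per array. The arms of miR-503 lie on opposite sides of 0 at 1.66 and -0.67, and most other pairs lie close together.

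The miR-15/16 superfamily had ratios above 0, some of them small. These microRNAs restrain the cell cycle, and the listed members share clusters in pairs, miR-15a and miR-15b each with a copy of miR-16, miR-195 with miR-497 and miR-322 with miR-503, so their ratios are not independent. All 7 listed members were detected in both muscles, and all 7 had log2 ratios above 0 in the main setting and in all 15 alternatives. The values ran from 0.06 ± 0.10 for miR-195 to 1.66 for miR-503, with a median of 0.34 beside -0.03 over all 159. The ratios of miR-195, miR-15b (0.239) and miR-16 (0.249) lay within the range of the spike-in controls, -0.217 to 0.252. That of miR-195 was 0.002 with scaling to the 75th percentile. miR-497, encoded on chromosome 11, was at 0.169 in gastrocnemius and 0.266 in soleus (log2 ratio 0.65 ± 0.14). For 3 of the 7 the soleus spots lay above the gastrocnemius spots, beside 14.5% over all 159, and 2 of the 7 were at least 1.5-fold higher, beside 8.18%. For the other 4 the spots overlapped.

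The miR-23, miR-27 and miR-24 clusters also read higher. A copy of this cluster lies on chromosome 8 and another on chromosome 13, and in mouse miR-23a is known to act on the atrophy ligases MuRF1 and atrogin-1. Of 9 listed arms 7 were detected in both muscles, and all 7 had log2 ratios above 0 in all 15 alternatives. Their median was 0.53, beside -0.03 over all 159. For 4 of the 7 the soleus spots lay above the gastrocnemius spots, beside 14.5% over all 159. At least 1.5-fold higher were 3 of the 7, beside 8.18%. Members share clusters and miR-24 is made by both copies, so their ratios are not independent. miR-24-2*, whose sequence is encoded by the chromosome 8 copy, gave spots of 213, 216, 228 and 231 units in gastrocnemius and of 468, 589, 645 and 761 units in soleus. Its level was 0.545 and 1.32, 2.42-fold higher in soleus (log2 ratio 1.28 ± 0.15), and soleus was the highest of the 5 arrays. miR-24-1*, whose sequence is encoded by the chromosome 13 copy, was at 2.02 and 3.996 (log2 ratio 0.98 ± 0.08), just inside 2-fold. The star sequences share the whole seed, and whether each probe reads only its own copy was not tested. The main arm miR-24, made by both copies, had a log2 ratio of 0.53 ± 0.10. The other members had ratios of 0.62 ± 0.38 for miR-27a, 0.38 ± 0.09 for miR-23b, 0.27 ± 0.17 for miR-23a and 0.21 ± 0.17 for miR-27b. That of miR-27b lay within the range of the spike-in controls, -0.22 to 0.25. The miR-24 star strands thus had the highest ratios of both clusters, while miR-27a* and miR-27b* were under the floor in both muscles. miR-24-2* maps to chr8:84208839-84208860 on the plus strand.

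miR-706 was the last past 2-fold in soleus. Its spots were 63, 72, 76 and 86 units in gastrocnemius and 147, 155, 187 and 207 units in soleus, and its level was 0.181 and 0.366 (log2 ratio 1.01 ± 0.15). The gastrocnemius level was the lowest of the 5 arrays and the soleus level lay within the fat range of 0.247 to 0.402. It was under 2-fold in 7 of the 15 alternatives, and whether its probe reads only this microRNA was not tested. Just inside the limit lay miR-668, at least 1.99-fold higher in soleus, miR-24-1* at 1.98-fold and miR-381 at 1.92-fold, and on the other side miR-365 at 1.86-fold and miR-190 at 1.85-fold lower in soleus.

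**Figure D4:**
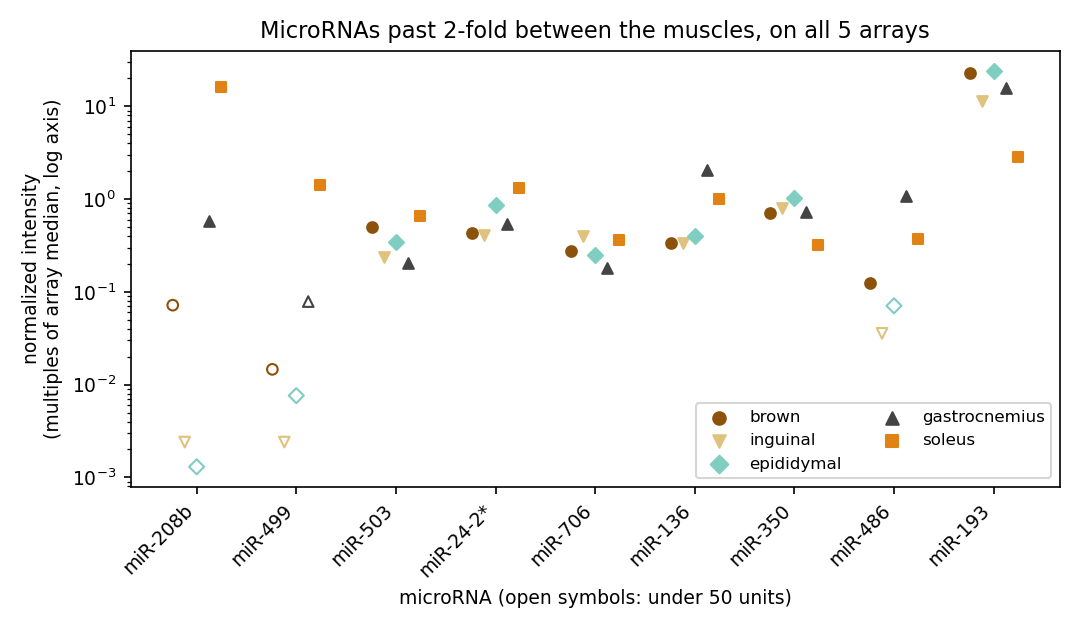
Normalized intensity (log axis, multiples of the array's median) of the 9 microRNAs past 2-fold between the muscles on all 5 arrays, with open symbols under 50 units. miR-208b and miR-499 are under the floor in every fat array, while miR-193 is high in all 3 fat arrays and in gastrocnemius and lowest in soleus.

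Other families had ratios mostly below 0, where the median over all 159 (-0.03) also lay. The miR-17 seed family, which drives proliferation, had all 5 detected members below 0. Their median was -0.38, equal to the first quartile over all 159. For 2 of the 5 the soleus spots lay below the gastrocnemius spots, beside 25.2% over all 159. The values ran from -0.56 ± 0.23 for miR-20a to 0.00 ± 0.27 for miR-106a, which was above 0 in 8 of the 15 alternatives. miR-17 and miR-20a share a cluster, as do miR-93 and miR-106b, so these ratios are not independent. miR-181a and miR-181b, which are known from mouse myoblasts to act on Hoxa11, had log2 ratios of -0.45 ± 0.14 and -0.83 ± 0.17, and miR-181a-2* was at least 1.79-fold lower in soleus. miR-196a and miR-196b, encoded in Hox clusters, had ratios of -0.70 ± 0.04 and -0.44 ± 0.10. The signs of the miR-181 and miR-196 members were the same in all 15 alternatives, except that miR-181a-2* was not measured with a floor of 100 units. Of the 9 let-7 microRNAs, 7 were below 0 with a median of -0.15, but without scaling 6 of the 9 were above 0. For 1 of the 9 the soleus spots lay below the gastrocnemius spots, beside 25.2% over all 159.

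The Dlk1-Dio3 locus is an imprinted domain whose maternal chromosome expresses a large group of microRNAs. Of 44 listed arms, 43 were on the array, 18 were detected in at least 1 muscle and 16 in both. Among the 16, 12 had log2 ratios below 0 and 4 above, with a median of -0.37, beside -0.03 over all 159. For 8 of the 16 the soleus spots lay below the gastrocnemius spots without overlap, beside 25.2% over all. miR-434-3p was at 1.62 in gastrocnemius and 1.20 in soleus (log2 ratio -0.44 ± 0.09), against 0.102 to 0.165 on the fat arrays, and miR-329 at 0.874 and 0.587 (-0.58 ± 0.17). miR-541 and miR-341 had ratios of -0.71 ± 0.13 and -0.68 ± 0.17. miR-381 went the other way, from 0.142 to 0.273 (0.94 ± 0.12), although it lies within the same stretch of chromosome 12 as miR-329. Without scaling 6 of 17 measured members were above 0, against 5 of 18 in the main setting with bounds included.

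Lists named for muscle function did not move as units. Of the 18 microRNAs listed for fibre type and metabolism, 17 were detected in both muscles, with 9 above and 8 below 0 and a median log2 ratio of 0.04, which was -0.02 with scaling to the 75th percentile. None of the 17 was at least 2-fold higher, beside 2.84% over all, and 1, miR-193, was at least 2-fold lower, beside 2.27%, so neither count stands apart from the background. The fibre type list leaves out miR-208b and miR-499, which were listed apart as the slow myosin pair and were both at least 2-fold higher. Of the 13 listed for muscle mass and atrophy, all were detected, with 9 above and 4 below 0 and with miR-503 and miR-486 at opposite ends. Their median was 0.27, beside -0.03 over all 159. At least 1.5-fold higher were 4 of the 13, beside 8.18%, and 2 were at least 1.5-fold lower, beside 11.9%. The soleus spots lay above the gastrocnemius spots for 4, beside 14.5%, and below them for 3, beside 25.2%. The list shares members with the miR-15/16 list. The miR-30 family had a median of 0.13, with miR-30c at 0.51 ± 0.13 and the other 4 from -0.03 to 0.21, the miR-29 family a median of 0.09 and the miR-26 family a median of 0.02, which was below 0 in 5 alternatives. The miR-99/100 and miR-125 families had all 5 listed members above 0, with miR-99a at 0.69 ± 0.13. Their median was 0.25, beside -0.03 over all 159. For 1 of the 5 the soleus spots lay above the gastrocnemius spots, beside 14.5% over all 159. However, miR-99b was below 0 with 1 spot left out, and miR-351, which shares the miR-125 seed but was not listed, was at -0.05 ± 0.09. The let-7c microRNA, made in part from the hairpin beside miR-99a, was at -0.36 ± 0.10.

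**Figure D5:**
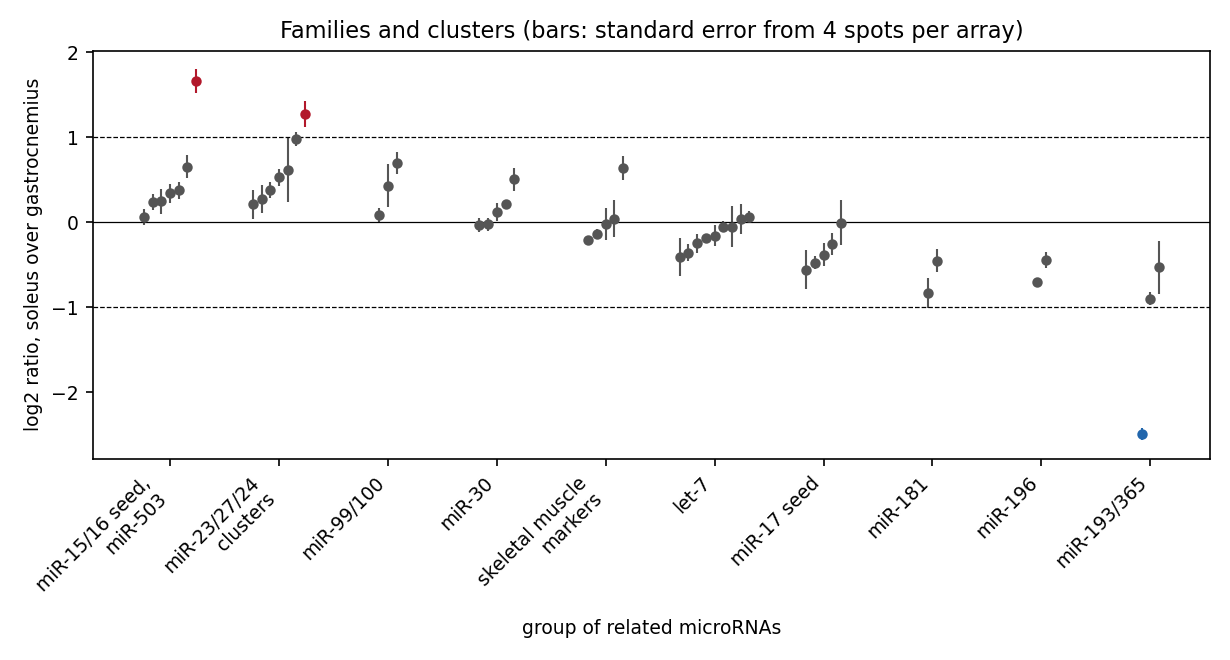
Log2 ratio of soleus over gastrocnemius (y axis) for the members of 10 groups of related microRNAs, 1 point each with a bar of 1 spot SE from 4 spots per array, coloured where past 2-fold (dashed lines). The miR-15/16 and miR-23/27/24 members all lie above 0, the miR-17, miR-181 and miR-196 members and the group of miR-193 with miR-365 at or below 0, and let-7 near 0.

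Ratios were also set out by genomic neighbourhood. Hairpins with no more than 25000 bases between neighbours were joined, which gave 34 clusters with at least 2 measured members. The ratios within a cluster spanned under 0.5 on the log2 scale in 21 of the 34, and 1 or more in 7. Among those 7 were the clusters of miR-503, of miR-193 with miR-365, of miR-24-2* and of miR-99a with let-7c. Some microRNAs are made from more than 1 cluster and count in each, such as miR-1 with miR-133a and miR-181a with miR-181b, and unrelated microRNAs were not compared in this way. By seed, 62 microRNAs detected in both muscles fell into 22 seeds with at least 2 members, and in 10 of the 22 every member lay on the same side of 0. Only 7 of the 22 seeds had 3 or more members, and unrelated microRNAs were not compared. The count therefore does not show that microRNAs of the same seed move together.

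Of the 17 microRNAs detected in 1 muscle only, 11 were detected in soleus and 6 in gastrocnemius. miR-499 was the 1 past 2-fold among them. For 5 of the soleus side, namely miR-203 at 54 units, miR-150 at 54.5 units, miR-145*, miR-184 and miR-325, the soleus level was below the lowest detected level of the gastrocnemius array, and no fold is given. The neural microRNA miR-124 was at 16.5 units in gastrocnemius and 59 in soleus, and miR-135a at 16 and 90.5 units, at least 1.56-fold higher in soleus. On the other side miR-744 was at 78.5 units in gastrocnemius and 42.5 in soleus. miR-668, detected in soleus only, and miR-181a-2*, detected in gastrocnemius only, had bounds of 0.996 and -0.84 on the log2 scale. The others detected in 1 muscle were miR-300* and miR-582-3p in soleus and miR-148a, miR-345-5p, miR-465b-5p and miR-539 in gastrocnemius, with bounds from -0.33 to 0.09 on the log2 scale. These pairs of values lie near the floor, where a low level is a bound only.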

How the data were processed

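Mature microRNA was measured on 1-colour miRCURY LNA arrays, whose probes contain locked nucleic acids, with 1 array each for soleus and gastrocnemius muscle and for 3 fat tissues. Per the labels, total RNA from tissue snap-frozen on dry ice was isolated by Trizol plus a column kit, then labelled for the Cy3 channel. The authors deposited the foreground and background-subtracted intensity of each spot, with 4 spots per probe, and per the file headers a probe's value is the median of its background-subtracted spots. Per the file headers, the authors divided it by the median, on that array, of the microRNAs exceeding 50 on every array. The resulting normalized intensity is a ratio to that median, and the deposited ratio of 2 arrays equals the quotient of their normalized intensities (largest relative gap 7.6e-14). Scanner software, genome build and the date of hybridisation are not given in sources used here.

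From these values the log2 ratio of soleus over gastrocnemius was taken for each of 598 mouse probes. A probe under 50 units in 1 muscle was set to that array's lowest detected level where this exceeded its own value (0.124 in gastrocnemius, 0.108 in soleus), which gives a bound written as "at least"; under the floor in both muscles no fold was taken, nor where the bound turned the direction. A microRNA was called at 2-fold or more. The spot SE combines the SD of the 4 log2 spot values on each array. No model was fitted and no test run, since each muscle has 1 array, so scan and slide effects cannot be told apart from the muscles. Spike-in controls detected in both muscles, 6 of 10, had log2 ratios of -0.22 to 0.25. The 4 probes for small nuclear and nucleolar RNAs detected in both muscles had log2 ratios of 0.02 to 0.33. Precision is limited by the number of arrays.

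The rule for naming covered all microRNAs past 2-fold, the 15 highest and 15 lowest ratios, the 15 brightest of each array, detected members of lists of families, clusters and cell markers, their other arms, and microRNAs detected in 1 muscle; other list members are given by counts and ranges. The members, lists and rules were chosen with earlier results of these data known. Array names were matched to RefSeq by a hand-made table of older and current names, and 147 of the 176 detected microRNAs had a RefSeq sequence that could be printed. Clusters join hairpins within 25000 bases. The code that makes the calls was checked on simulated data, which bears on the code and not on the calls. Alternatives covered the scaling (none, other medians and percentiles, quantile, spike-ins), normexp with an offset of 50, no background subtraction, floors of 25 and 100 units, unraised low values, the mean of log2 spots and each spot left out. Python 3.11.15, numpy 2.4.6, pandas 2.3.3, R 4.3.3 and limma 3.58.1 were used. Unnamed, viral and human control probes did not enter the comparison of mouse microRNAs, except in the quantile alternatives, which scale over all probes; unnamed and viral probes are described apart.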

Additional observations from a re-analysis of the deposited data

Results flagged for a closer look

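Outside the mouse microRNA probes, signal appeared in data that the comparison did not use. Among 1259 probes for which the files give no name, 173 were detected in soleus and 171 in gastrocnemius, while empty spots reached at most 3 units in soleus and 4 units in gastrocnemius. Of the 186 unnamed probes detected in at least 1 muscle, 2 were at least 2-fold higher and 3 at least 2-fold lower in soleus (2.69% together), and the SD of their log2 ratios over the 158 detected in both was 0.39. Probes named for microRNAs of a mouse herpesvirus also passed the floor. The probe mghv-miR-M1-4 read 87.5 units in soleus and 62.5 in gastrocnemius, mghv-miR-M1-8 read 186 and 130, and mghv-miR-M1-7-3p read 76.5 in soleus and 22.5, under the floor, in gastrocnemius. On the brown, inguinal and epididymal fat arrays mghv-miR-M1-8 read 197, 245.5 and 202 units, above both muscles. There mghv-miR-M1-4 read 62.5, 22 and 37 units, and mghv-miR-M1-7-3p read 43.5, 20.5 and 23.5 units. The labels name no infection, and the source of these signals was not tested.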

How the results depend on the processing

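Under 15 alternatives of processing no called microRNA changed sign, and 4 of the 5 higher (miR-208b, miR-499, miR-503, miR-24-2*) and 2 of the 4 lower calls (miR-193, miR-486) remained in every one. The higher count was 8 without scaling, with scaling to the median of mouse probes detected in both muscles, with a floor of 25 units and with low values as deposited. The lower count was 2 without scaling, with normexp and quantile normalization and with foreground intensity not background-subtracted. Lower floors and unraised values admit low probes by construction; for the other settings the cause was not tested. Without scaling the median log2 ratio over microRNAs detected in both muscles rose to 0.17 from -0.03, a shift of the whole array. The SD ran from 0.54 to 0.68. Of 2513 single ratios recomputed, 444 moved by more than the spot SE, as did 48 of 345 list medians by more than the median spot SE. No paired analysis was possible because each muscle has 1 array. Levels near 50 units give bounds only, and animal, extraction and labelling differences are not covered by any error given here.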

Other observations

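Several further microRNAs differed by less than 2-fold, with spots that did not overlap except for miR-101a. miR-128, a brain and muscle microRNA, was at 0.723 in gastrocnemius and 1.16 in soleus (log2 ratio 0.68 ± 0.10, spot SE), above its 0.0278 to 0.0654 on the fat arrays. Both arms of miR-140, known from cartilage, read higher in soleus, with log2 ratios of 0.46 ± 0.14 and 0.74 ± 0.20 for the star strand. miR-690 was at 1.06 and 1.82 (0.78 ± 0.14). On the other side, miR-190 was at 0.945 in gastrocnemius and 0.510 in soleus (-0.89 ± 0.07), miR-361 at 1.20 and 0.741 (-0.70 ± 0.08) and miR-500 at 0.346 and 0.208 (-0.73 ± 0.06). miR-21, which rises with tissue remodelling and inflammation in many organs, was at 6.98 and 4.59 (-0.60 ± 0.05). miR-101a and miR-101b, which act on the chromatin regulator Ezh2, had log2 ratios of -0.41 ± 0.21 and -0.59 ± 0.15, below 0 in all 15 alternatives.

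The spread of the ratios differed with level. Among the 53 brightest of the 159 microRNAs by mean level, which include miR-208b and miR-193, the SD of log2 ratios was 0.81 and the interquartile range 0.43. Among the 53 of middle level the interquartile range was 0.74, and among the 53 dimmest 0.54. The median spot SE was 0.10, 0.13 and 0.14 from the brightest to the dimmest.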
